A study of Mus musculus with 4 samples.

Results

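Progress through the cell cycle is driven by cyclin-dependent kinases (CDKs), and the CDK inhibitors are the proteins that hold them back. The genes described here are the 7 members of the Cip/Kip and INK4 families, chosen by name, with the level of Cdkn1a on these arrays already known from the measured log2 values of all 4 arrays. Every one of the 7 was measured, out of 22180 genes with a named probe set, and each was read by 1 probe set. Because the choice of this family drew on these values, all levels and differences of its members are descriptions and carry no test.

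The 3 Cip/Kip proteins, p21 (Cdkn1a), p27 (Cdkn1b) and p57 (Cdkn1c), bind cyclin and CDK together and act on CDK2 complexes above all. The 4 INK4 proteins, p16 (Cdkn2a), p15 (Cdkn2b), p18 (Cdkn2c) and p19 (Cdkn2d), bind CDK4 and CDK6 and keep D-type cyclins off them, so that the retinoblastoma protein stays unphosphorylated and E2F factors stay bound. In resting T cells p27 is the best-known brake and is degraded when cells enter the cycle, while p21 is the classical target of p53 and is also made on T cell activation.

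The study compared 4 mouse populations of 8-week-old C57BL/6 mice, each on 1 Affymetrix array. CD4+CD62Lhi naive T cells came from wild-type spleen, and classical Th1 cells (cTh1) were such cells after 5 days on CD3/CD28 beads with an antibody to IL-4, IL-2 at 50 U/ml and IL-12 at 2 ng/ml. Natural Th1 cells (nTh1, CD4+CD62L+CXCR3+) and TT naive cells (CD4+CD62L+CXCR3-) were thymocytes of CIITAtg mice; neither the promoter that drives that transgene nor any pooling of animals is stated in the labels. Values are log2 probe set summaries, on which a difference of 1 is a 2-fold difference. With 1 array per group there is no replicate, so no p-value is given, and the depth of sampling is limited by the number of arrays. The only spread that could be measured was that between different probe sets of the same gene, whose SD for a log2 difference was 0.257 to 0.481 depending on the pair of arrays. It leaves out animals, sorts and arrays. In these bulk samples, more cells with a transcript and more transcript per cell cannot be told apart.

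The array labelled as naive cells went against its label. Cd4 (12.33 to 12.72) and Cd3e (12.88 to 13.11) were high on all 4 arrays. The naive-labelled array had Cxcr3 at 9.80, Tbx21 at 9.81, Ifng at 8.80 and Zbtb16 at 12.23, where TT naive cells had 7.76, 7.11, 5.88 and 9.36. It also had the MHC class II gene H2-Aa at 12.66, as in nTh1 (12.66), and the Y-linked Eif2s3y at 8.61, close to TT naive (8.55), whereas cTh1 (4.97) and nTh1 (5.16) were low. It is called the naive-labelled array throughout. Directions drawn from it depend on that label, so each comparison of cTh1 with it is given beside the one with TT naive. Markers of other cells also differed. The 7 measured B cell markers had a mean log2 level of 8.29 on the cTh1 array (6 of 7 not below the overall median of 6.61) against 6.22 to 6.95 on the others (3 or 4 of 7), and the 2 CD8 markers 10.53 against 7.38 to 8.09. Of these 2, Cd8b1 was also at 9.75 in nTh1 and 9.38 in TT naive. The 10 myeloid markers had their highest mean in nTh1 (7.90, against 6.51 to 7.23), as did the 4 measured immature thymocyte markers (8.39, against 6.99 to 7.36). The mean of the 5 NK markers lay between 6.38 and 7.54, but single markers peaked on different arrays. Klrd1 was highest in cTh1 (10.28, against 7.65 to 8.73). Fcer1g was highest on the naive-labelled array (9.57, against 7.09 to 8.75) and Tyrobp in nTh1 (8.59, against 6.85 to 7.66). Klrb1c and Ncr1 stayed below 6.61 on all arrays. The part of such cells in the results that follow was not tested.

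Cdkn1a, which encodes p21, was the member with by far the widest range. Its log2 value was 12.13 in cTh1, 7.77 on the naive-labelled array, 7.39 in nTh1 and 6.63 in TT naive cells. The cTh1 array thus stood alone, and the TT naive value lay next to the median of all values on the 4 arrays, 6.61. cTh1 was above the naive-labelled array by 4.37 (20.6-fold), above nTh1 by 4.74 (26.7-fold) and above TT naive by 5.50 (45.4-fold). From the top, these differences held rank 10 of 12835, rank 3 of 12841 and rank 5 of 12728 genes. Among the other arrays the differences were far smaller. nTh1 was above TT naive by 0.77, TT naive was below the naive-labelled array by 2.20-fold (log2 -1.14), and nTh1 and the naive-labelled array were 0.37 apart, hardly more than the probe set SD of that pair (0.368). The order was therefore cTh1, the naive-labelled array, nTh1, TT naive, with only the middle pair close to the measurable spread.

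Cdkn1a has 2 start sites in the RefSeq promoter table (GRCm38.p6), and the probe set value does not say which was used. The 250 bases before each are shown because they differ in the motifs found in them. In the upstream window, chr17:29090729-29090978 (+ strand), capitals mark the match to the p53 consensus, searched as 2 directly joined half-sites, 20 letters in all, with at most 1 letter off. In the downstream window, chr17:29093519-29093768 (+ strand), capitals mark the GC box GGGCGG.
Cdkn1a upstream start: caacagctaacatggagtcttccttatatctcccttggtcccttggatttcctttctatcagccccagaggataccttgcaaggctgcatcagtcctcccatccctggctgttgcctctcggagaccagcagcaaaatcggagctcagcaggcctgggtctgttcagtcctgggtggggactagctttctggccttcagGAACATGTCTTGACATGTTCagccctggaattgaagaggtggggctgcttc
Cdkn1a downstream start: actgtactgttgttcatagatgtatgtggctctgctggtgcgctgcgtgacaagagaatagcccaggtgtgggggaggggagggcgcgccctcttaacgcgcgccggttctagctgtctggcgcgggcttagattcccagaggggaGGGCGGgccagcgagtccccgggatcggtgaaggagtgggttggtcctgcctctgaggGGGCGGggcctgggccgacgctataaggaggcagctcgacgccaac

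The p53 match, with 1 letter off the consensus, lay 51 to 32 bases before the upstream start. Of 32851 windows of the same length in the table, 25 (0.0761%) held such a match, and none of the other 8 windows of the CDK inhibitor genes did. The search for the p53 consensus was chosen after these sequences were read. Its reverse complement is the same pattern, so 1 search covers both strands. The GC box was searched on both strands, was found 2 times in the downstream window and 0 times in the upstream one, and is held by 32.7% of all windows. Promoters of 6 of the 7 members were matched by symbol, with 9 windows in all, of which 5 held a GC box. Matches of different motifs were counted separately and may share bases, and a match is a description of the letters only.

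**Figure D1:**
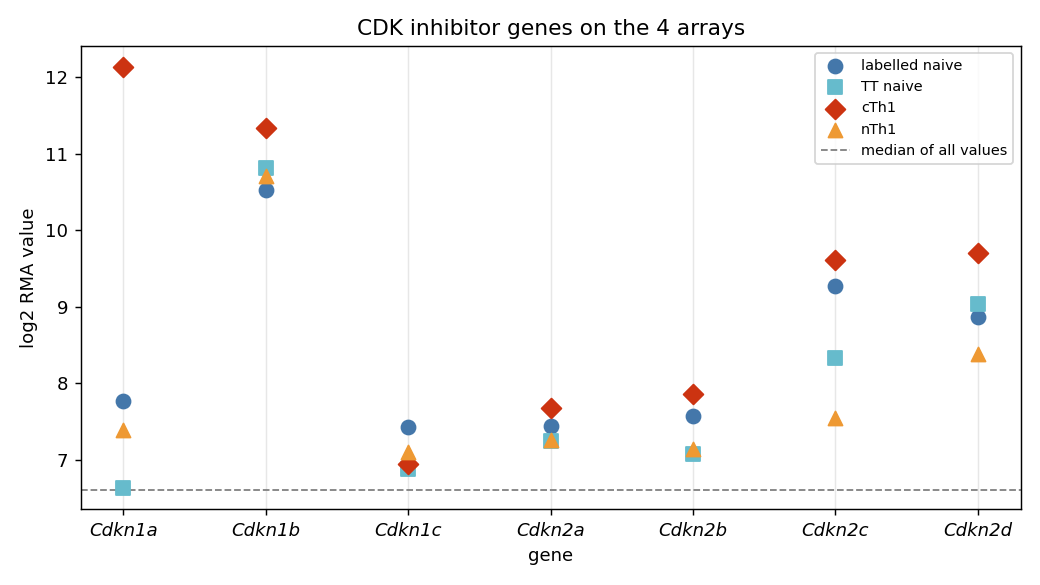
Log2 RMA value (y axis) of the 7 CDK inhibitor genes (x axis) on the 4 arrays, 1 point per array, with no error bars because each group has 1 array. The dashed line is the median of all values, 6.61. Points should be compared within a gene, not between genes, since each gene has its own probe set. Cdkn1a in cTh1, at 12.13, stands far above its other 3 values, which lie between 6.63 and 7.77.

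Cdkn1b (p27), the brake of resting T cells, was measured at 11.34 in cTh1, 10.81 in TT naive, 10.70 in nTh1 and 10.52 on the naive-labelled array. It was highest, not lowest, in the cultured cells, by 0.82 over the naive-labelled array, 0.53 over TT naive and 0.64 over nTh1. Each of these is under 2-fold but larger than the probe set SD of its pair (0.402, 0.440 and 0.481). The other 3 arrays lay within 0.29 of each other, inside that spread. p27 is controlled largely through its breakdown, which an RNA array does not read. The non-coding RNA gene Lockd, next to Cdkn1b on the chromosome, had a wider range, with 9.18 in cTh1, 8.22 on the naive-labelled array, 7.66 in TT naive and 6.93 in nTh1, so that cTh1 was above nTh1 by 2.25 there.

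Cdkn1c (p57), an imprinted gene best known from embryonic tissues, gave 7.42 on the naive-labelled array, 7.10 in nTh1, 6.95 in cTh1 and 6.88 in TT naive. The naive-labelled array was above TT naive by 0.54 and above cTh1 by 0.48, and the other 4 differences were within the probe set SD. The sign of its cTh1 minus TT naive difference, 0.07, turned when arrays were centred or a loess trend was removed. Of the 10 listed imprinted or neighbouring genes of its cluster 9 were measured, and 5 passed the level filter in each comparison with cTh1. Kcnq1ot1, the antisense RNA that silences this cluster on the paternal chromosome, was the member that differed by 2-fold or more: it stood at 9.25 in TT naive and 9.04 in nTh1 but at 7.95 on the naive-labelled array and 7.52 in cTh1, so that the cTh1 minus thymic array differences were -1.73 and -1.52 in log2 units. It overlaps Kcnq1 on the other strand, and Kcnq1 itself lay between 6.16 and 6.43.

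Among the INK4 genes, Cdkn2c (p18), which restrains lymphocyte division, had the widest range. Its values were 9.61 in cTh1, 9.27 on the naive-labelled array, 8.32 in TT naive and 7.54 in nTh1. cTh1 was above nTh1 by 2.07 (4.19-fold) and above TT naive by 1.28 (2.43-fold), and nTh1 was below the naive-labelled array by 3.32-fold (log2 -1.73). cTh1 and the naive-labelled array differed by 0.34, within the probe set SD of 0.402, while every other pair differed by more than its SD. The 2 highest arrays were those labelled as spleen cells, as for Cdkn1a, but here they lay within the probe set SD of each other, and nTh1 was the lowest.

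Cdkn2d (p19) is known to vary through the cell cycle. It was measured at 9.71 in cTh1, 9.03 in TT naive, 8.87 on the naive-labelled array and 8.38 in nTh1. cTh1 was above nTh1 by 1.33 (2.51-fold), above the naive-labelled array by 0.84 and above TT naive by 0.68, and nTh1 was 0.65 below TT naive. The naive-labelled array and TT naive did not differ beyond the probe set SD. nTh1 was thus the lowest of the 4 arrays for Cdkn2c and Cdkn2d alike.

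Cdkn2b (p15), a gene induced by TGF-beta, gave 7.85 in cTh1, 7.57 on the naive-labelled array, 7.15 in nTh1 and 7.08 in TT naive, with no difference of 2-fold. The values formed pairs: cTh1 was above TT naive by 0.77 and above nTh1 by 0.71, while cTh1 and the naive-labelled array (0.28) and nTh1 and TT naive (0.06) differed by less than the probe set SD. Cdkn2a, beside it on the chromosome, encodes both p16 and the unrelated protein p19Arf from different first exons, which its 1 probe set does not separate. It was at 7.68, 7.44, 7.26 and 7.25 in cTh1, the naive-labelled array, nTh1 and TT naive, and 0 of its 6 differences exceeded the probe set SD. On the other side of Cdkn2a lies Mtap, at 10.64 on the naive-labelled array, 10.49 in TT naive, 10.27 in nTh1 and 9.90 in cTh1, so it was lowest in cTh1, where Cdkn2a and Cdkn2b were highest.

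Cdkn2c also has 2 start sites in the table, and the window before the upstream one, chr4:109666757-109667006 (- strand), is shown because E2F factors act on many genes that vary with division. Capitals mark the E2F word found there. The words searched on both strands were TTCCCGC with its variants TTCGCGC and TTGCCGC, as well as TTGGCGC.
Cdkn2c upstream start: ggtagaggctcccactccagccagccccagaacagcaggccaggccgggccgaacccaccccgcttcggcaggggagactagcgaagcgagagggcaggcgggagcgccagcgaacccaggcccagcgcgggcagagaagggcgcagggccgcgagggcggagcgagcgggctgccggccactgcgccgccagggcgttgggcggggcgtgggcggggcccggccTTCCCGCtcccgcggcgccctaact

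The match lay 25 to 19 bases before that start, and the same window held 3 GC boxes. Of the 9 windows of CDK inhibitor genes, 2 held an E2F word, this one and the upstream window of Cdkn2a, against 7.89% of all windows in the table. Both windows were rich in G and C, at 77.2% and 78.4%, and the share among windows of such content was not counted. The window before the downstream start of Cdkn2c, at 42.8%, held 0. The probe set value does not say which start was used.

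**Figure D2:**
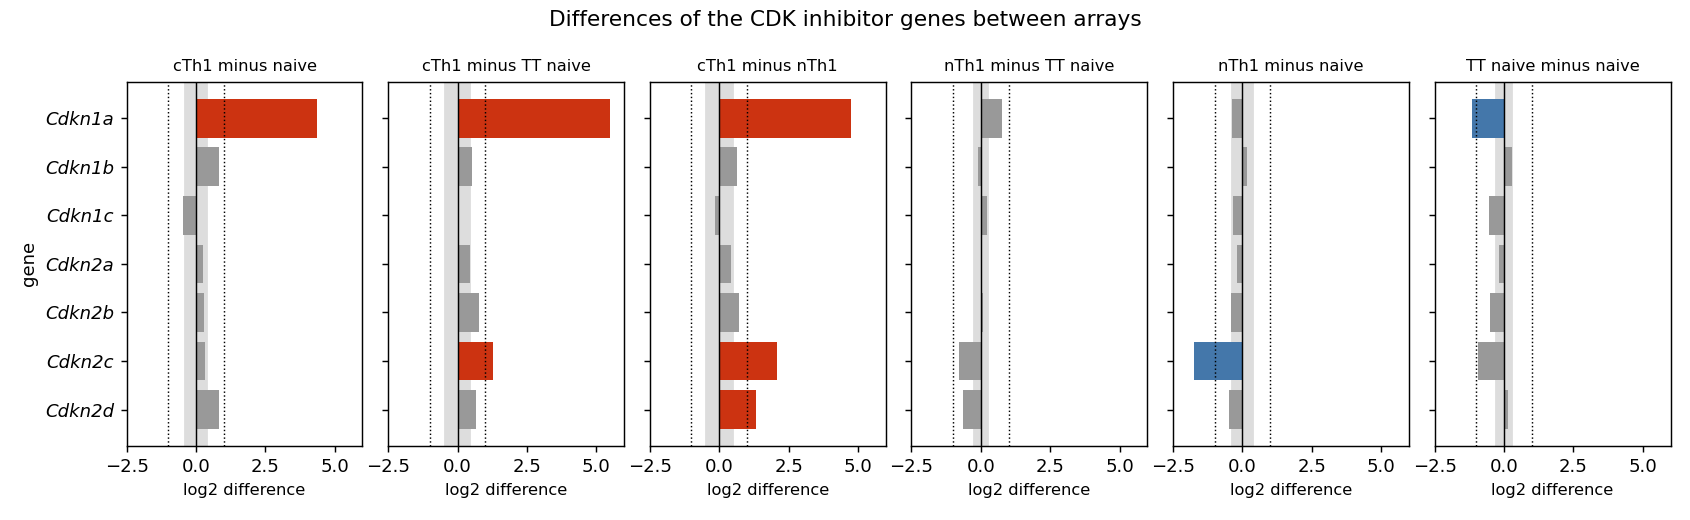
Log2 difference (x axis) of each CDK inhibitor gene (y axis) in the 6 pairs of arrays, first array minus second, with 1 array on each side. Red bars are at least 2-fold higher, blue bars at least 2-fold lower, dotted lines mark a log2 difference of 1 in each direction, and the grey band is the probe set SD. Cdkn1a is past 4 in all 3 panels with cTh1 on the first side, and Cdkn2c and Cdkn2d join it at 2-fold against nTh1.

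All 7 members passed the level filter in every comparison, that is, at least 1 of the 2 arrays was at or above 6.61. Against the naive-labelled array, cTh1 had 1 member at least 2-fold higher (Cdkn1a) and 0 lower, where 5.13% of 12835 genes were higher and 3.35% lower. Against TT naive it had 2 higher (Cdkn1a and Cdkn2c) and 0 lower, where the shares of all genes were 7.24% and 3.02%. Against nTh1 it had 3 higher (Cdkn1a, Cdkn2c and Cdkn2d) and 0 lower, where they were 8.30% and 3.46%. These comparisons share the cTh1 array and are not independent. Between nTh1 and TT naive, 0 members were 2-fold apart in either direction, with 1.41% of genes higher and 1.09% lower in nTh1. nTh1 had 1 member at least 2-fold lower than the naive-labelled array (Cdkn2c) and 0 higher, with 4.43% of genes lower and 1.93% higher. TT naive likewise had 1 lower (Cdkn1a) and 0 higher, with 2.59% lower and 0.795% higher. That call was lost under a stricter level filter, the 75th percentile (8.39), which neither Cdkn1a value reaches. Since the members were picked with these values known, nothing is read from their counts.

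The measured kinases that these proteins bind differed less than Cdkn1a in the comparisons with cTh1. Of the INK4 targets, Cdk6 was at 10.41 in cTh1, 9.93 in nTh1, 9.51 on the naive-labelled array and 9.09 in TT naive, so that cTh1 was 1.32 above TT naive and 0.90 above the naive-labelled array. Cdk4 varied little, from 11.89 in cTh1 to 12.21 on the naive-labelled array. Their D-type cyclin partners stayed within 2-fold in all 3 cTh1 comparisons: Ccnd3 was highest in cTh1 at 11.94 (11.26 to 11.49 elsewhere), Ccnd2 lay between 11.80 and 12.49, and Ccnd1 between 6.99 and 7.38.

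Of the partners of p21 and p27, Cdk2 was at 10.17 on the naive-labelled array, 9.77 in cTh1, 9.76 in TT naive and 9.13 in nTh1. Ccne1, the cyclin E that starts S phase, was at 9.36, 9.16, 8.80 and 8.17 in the same order of arrays. Neither was 2-fold apart in a comparison with cTh1. The cyclins of later phases differed more. Ccna2 was at 11.64 in cTh1 and 11.01 on the naive-labelled array against 10.11 in TT naive and 10.04 in nTh1, and Ccnb2 at 11.80 and 11.11 against 10.00 and 9.53. Both were at least 2-fold higher in cTh1 than in either thymic population, as was Cdk1 (by 1.60 over TT naive and 1.84 over nTh1), and none of the 3 was 2-fold apart from the naive-labelled array.

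Of 11 listed proteins that activate or restrain CDKs, 10 were measured. cTh1 had 2 of them at least 2-fold higher than the naive-labelled array, 4 higher than TT naive and 5 higher than nTh1, and 0 lower in each, with list medians of -0.10, 0.84 and 0.92 against medians of -0.02, 0.03 and 0.08 over all genes. Cdkn3, a phosphatase of CDKs that belongs to neither the Cip/Kip nor the INK4 family, was at 9.87 in cTh1, 8.26 on the naive-labelled array, 7.49 in TT naive and 7.10 in nTh1. Cdc25c, the phosphatase that activates Cdk1, was higher in cTh1 by 1.19, 2.38 and 2.35. Against both thymic arrays Wee1, the kinase that restrains Cdk1, was higher as well, by 1.22 over TT naive and 1.52 over nTh1, and so was Cks2, by 1.09 and 1.29. Cdc25b was higher by 2.11 over nTh1.

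The retinoblastoma family, through which the INK4 proteins act, was level across arrays: Rb1, Rbl1 and Rbl2 each varied by at most 0.52. Of the 13 measured members of the retinoblastoma and E2F list, 0 were 2-fold apart between cTh1 and the naive-labelled array, 1 was higher in cTh1 than in TT naive (E2f8, by 1.00, a call lost when arrays were centred on their medians) and 3 higher than in nTh1 (E2f2 by 1.64, E2f8 by 1.44, E2f7 by 1.17). E2f7 and E2f8 are the repressor E2Fs made late in S phase. E2f1 was highest on the naive-labelled array, at 9.60, and 8.71 to 9.07 on the others.

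Proliferation genes had their highest mean levels on the 2 arrays labelled as spleen cells. The 15 listed genes had a mean log2 level of 10.44 on the naive-labelled array and 10.37 in cTh1, against 9.59 in TT naive and 9.44 in nTh1. For cTh1 against the naive-labelled array, 1 of 15 was at least 2-fold higher (Aurkb by 1.03) and the median was -0.21. In that comparison Cdkn1a differed by 4.37 and Cdkn2c by 0.34. This median covers genes that went opposite ways. Birc5 (0.98), Plk1 (0.47), Rrm2 (0.38), Bub1 (0.32) and Top2a (0.24) were also higher in cTh1. Mcm2, Mcm3, Mcm4, Mcm5, Mcm6 (-0.74), Mcm7, Cdc6 (-0.72) and Tyms (-0.69) were lower, Mcm2 by just short of 2-fold. Rrm2, Bub1, Top2a, Mcm3, Mcm4 and Mcm7 lay within the probe set SD of 0.402. Against TT naive 6 were at least 2-fold higher and 0 lower, with a median of 0.67. The largest differences there were for Aurkb (2.12), Birc5 (1.92) and Plk1 (1.77). Against nTh1 7 were at least 2-fold higher and 0 lower, with a median of 0.88. nTh1 had 9 of the 15 at least 2-fold below the naive-labelled array, with a median of -1.17. Mki67, the common marker of cycling cells, stood at 11.22 on the naive-labelled array, where cTh1 had 11.23, TT naive 10.24 and nTh1 10.03.

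**Figure D3:**
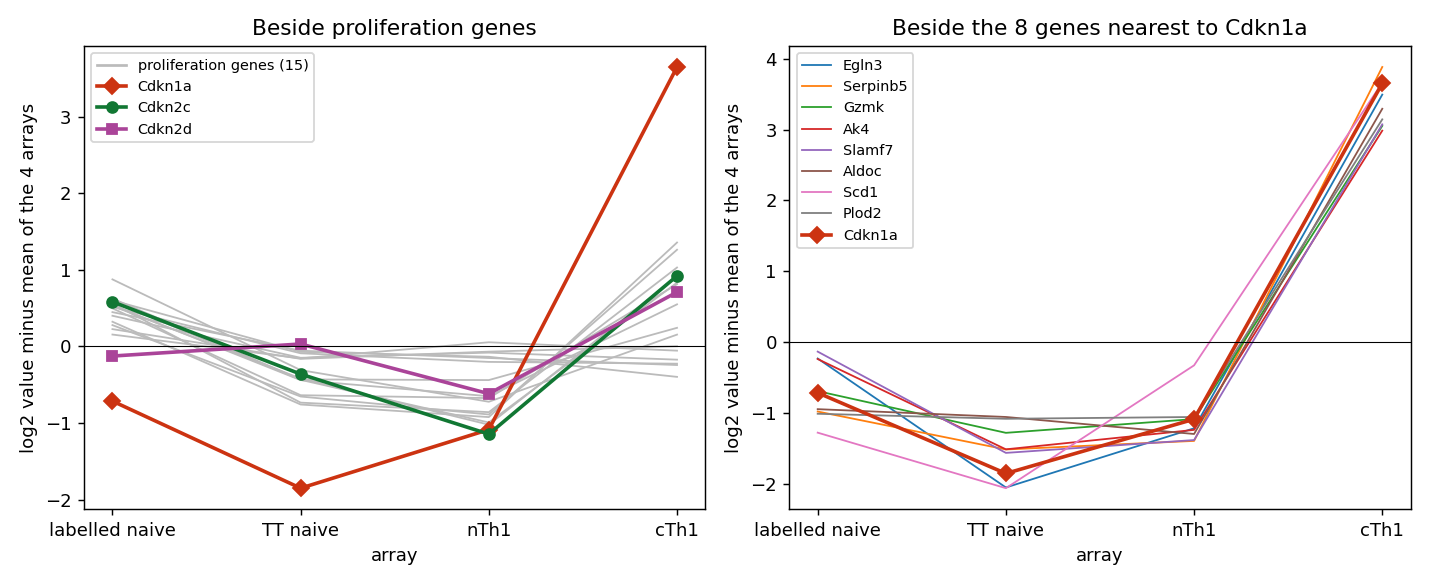
Log2 value minus the gene's own mean over the 4 arrays (y axis) for each array (x axis), 1 array per group, with lines joining the values of a gene. The left panel sets Cdkn1a, Cdkn2c and Cdkn2d beside the 15 proliferation genes (grey), and the right panel sets Cdkn1a beside the 8 genes with the nearest profiles. On the left the Cdkn2c line lies among the grey lines at each array except nTh1, where its value, 7.54, is its lowest, while the Cdkn1a line lies below them on all arrays but cTh1, where it lies above them. On the right all lines peak in cTh1.

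p53 target genes were read beside Cdkn1a, which is the best known of them. Of 24 listed genes other than Cdkn1a, 22 were measured and 21 passed the filter in each comparison with cTh1. Against the naive-labelled array, cTh1 had 4 of them higher by 2-fold or more and 2 lower, a median of 0.39. Against TT naive 5 were higher and 1 lower, with a median of 0.45, and against nTh1 6 were higher and 1 lower, with a median of 0.73. The shares of all genes and their medians are those given above.

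Phlda3, a p53-induced inhibitor of Akt, had the largest difference after Cdkn1a against TT naive and against nTh1, while Polk had it against the naive-labelled array. It was at 9.80 in cTh1, 8.20 on the naive-labelled array, 7.62 in TT naive and 7.55 in nTh1. Tnfrsf10b, a death receptor for TRAIL, was at 9.52, 8.15, 7.66 and 7.64 on the same arrays, and Polk, a DNA polymerase that copies past lesions, at 9.43, 7.72, 8.20 and 7.93. These 3 were at least 2-fold higher in cTh1 in all 3 comparisons.

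Ddit4, which also answers hypoxia and glucocorticoids, was at 11.52 in cTh1 and 11.35 in TT naive but at 10.16 on the naive-labelled array and 9.48 in nTh1. Sesn2, a stress-induced regulator of mTORC1, was higher in cTh1 by 1.18 over TT naive and 1.10 over nTh1. Ei24 was higher by 1.07 over nTh1. Perp was at 8.25 on the naive-labelled array, 7.05 in cTh1, 6.12 in nTh1 and 5.65 in TT naive, a cTh1 difference of log2 -1.20 from the naive-labelled array and of 1.40 from TT naive. Plk3, a stress-activated kinase, was lower in cTh1 in all 3 comparisons, with log2 differences of -1.55, -1.17 and -1.12.

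The other p53 targets stayed under 2-fold in all 3 comparisons with cTh1, several of them beyond the probe set SD. Pmaip1 (Noxa), which promotes apoptosis, was higher in cTh1 by 0.64 to 0.98, Zmat3 by 0.74 to 0.85, Sesn1 by 0.21 to 0.97, Bbc3 (Puma) by 0.21 to 0.80 and the death receptor Fas by 0.33 to 0.69. Others went the other way. Aen was lower in cTh1 in all 3 comparisons, with log2 differences from -0.23 to -0.42, and Tigar likewise, from -0.04 to -0.37. Plk2 had a log2 difference of -0.94 from the naive-labelled array, but of 0.74 from TT naive and 0.73 from nTh1. Smaller positive differences were found as well. Mdm2, the ligase that degrades p53 and is itself a p53 target, differed by 0.16 to 0.31 between cTh1 and the other arrays, Ccng1 by 0.31 to 0.73 and Btg2 by 0.18 to 0.25. Of 9 listed genes for p53 and its regulators 8 were measured, and Trp53 was not analysed here. Chek2, a checkpoint kinase, was at 8.46 in cTh1 against 7.28 to 7.73, and Chek1 was at 9.09 on the naive-labelled array against 8.00 to 8.12. Between cTh1 and the naive-labelled array, 0 members of that list were 2-fold higher and 1 lower, and against TT naive and nTh1 1 was higher each time (Chek2, by 1.18 and 1.00) and 0 lower. The second of these calls was lost when arrays were centred or a loess trend was removed. Mdm2 is in both p53 lists. Trp53cor1, the non-coding lincRNA-p21 that lies beside Cdkn1a and is known as a p53-induced transcript, was at 7.61 in cTh1, 6.98 in nTh1, 6.89 on the naive-labelled array and 6.65 in TT naive, differences of 0.63 to 0.96. Rab44, on the other side of Cdkn1a, was lowest in cTh1, at 6.85 against 7.03 to 7.70.

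**Figure D4:**
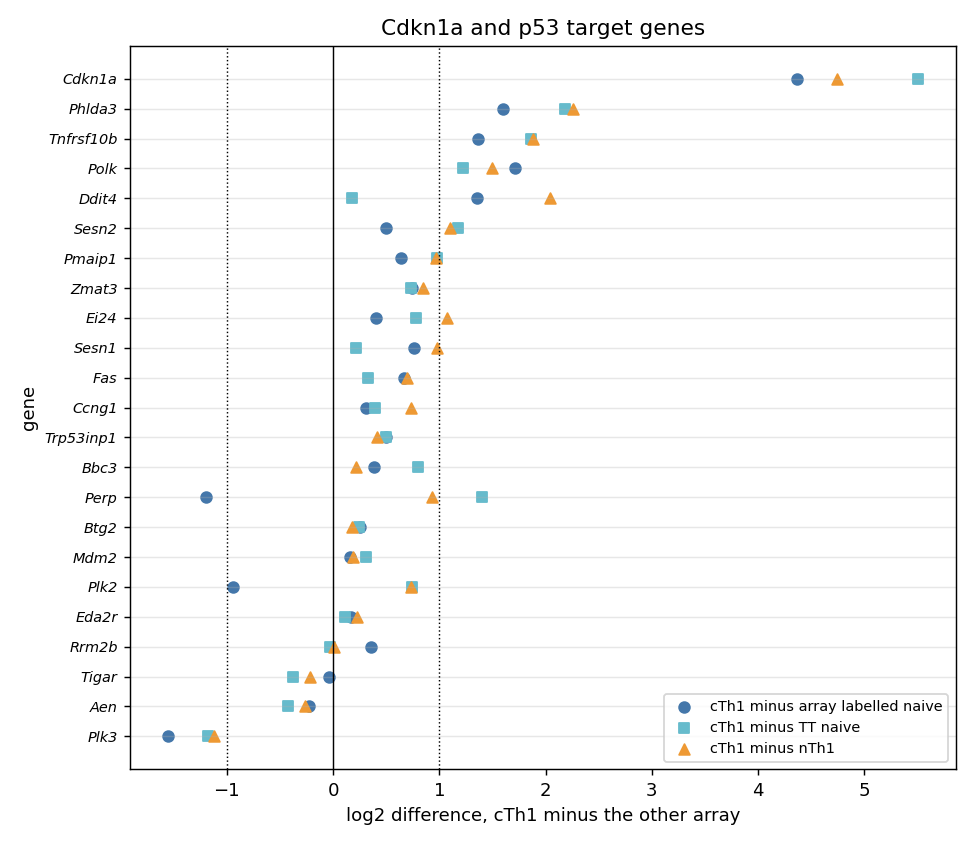
Log2 difference of cTh1 minus each other array (x axis) for Cdkn1a and the 22 measured p53 target genes (y axis, ordered by their mean difference), 1 array on each side, with dotted lines at a log2 difference of 1 in each direction. Phlda3, Tnfrsf10b and Polk lie beyond 1 in all 3 comparisons, and Cdkn1a lies beyond 4.

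Upstream and turnover factors were read against the shares of all genes, here and in the next paragraph. Against the naive-labelled array, TT naive and nTh1, 5.13%, 7.24% and 8.30% of all genes were at least 2-fold higher in cTh1. The shares lower were 3.35%, 3.02% and 3.46%. In lists this short, small counts lie near such shares, and nothing is read from them. Of 12 measured genes for the breakdown of p21 and p27, 1 was 2-fold higher in cTh1 than in TT naive and the same number than in nTh1, Cdc20 each time, by 2.13 and 2.00, and 0 genes were 2-fold apart from the naive-labelled array. Skp2, the F-box protein that marks p27 for breakdown, lay between 8.30 and 8.67, and Pcna, the replication clamp that p21 binds, between 12.02 and 12.20. Of 11 FOXO and quiescence factors 0 were 2-fold apart in any comparison with cTh1. Foxo1 and Foxo3, which switch on Cdkn1b, were highest in cTh1, at 11.35 (10.89 to 11.20 elsewhere) and 8.86 (8.36 to 8.55 elsewhere), by less than 2-fold. Both were beyond the probe set SD only against the naive-labelled array. Klf2, Btg1, Tsc1 and Foxp1 were lower in cTh1 than in both thymic populations, within the SD. The list median for cTh1 minus TT naive was 0.03. Any part of these factors in the Cdkn1b values was not tested.

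In the list of TGF-beta signalling with Myc and Miz1, which act on Cdkn2b and Cdkn1a, 0 of 11 were 2-fold apart between cTh1 and the naive-labelled array or TT naive. Between cTh1 and nTh1 1 was higher, Klf10 by 1.28, and 1 lower, the feedback inhibitor Smad7 with a log2 difference of -1.38. For Smad7 the cTh1 minus TT naive difference was -0.996, just short of 2-fold. Myc was at 11.07 in cTh1, 10.76 in nTh1, 10.64 in TT naive and 10.14 on the naive-labelled array. Of 10 measured Polycomb genes, which silence the Cdkn2a and Cdkn2b locus in many cells, 0 were 2-fold apart in these comparisons. Cbx7 came nearest, at 10.84 in cTh1 against 9.84 on the naive-labelled array.

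The genes whose profile over the 4 arrays was most like that of Cdkn1a were ranked by the distance between profiles centred on their own means, among genes at or above the filter on any array. In order they were Egln3 (distance 0.561 on the log2 scale), Serpinb5 (0.576), Gzmk (0.829), Ak4 (0.900), Slamf7 (0.918), Aldoc (0.927), Scd1 (0.968) and Plod2 (0.970). Egln3, an oxygen-sensing hydroxylase, was at 12.82 in cTh1, 9.09 on the naive-labelled array, 8.11 in nTh1 and 7.27 in TT naive. Serpinb5, a serpin known from epithelia, was at 10.87 in cTh1 and between 5.47 and 6.01 elsewhere. Gzmk, a granzyme also made by CD8 T cells, was at 10.96 in cTh1 and between 6.63 and 7.22 elsewhere. The CD8 chain Cd8a was at 10.31 in cTh1 against 6.22 to 6.42. The other CD8 chain, Cd8b1, was at 10.75 in cTh1, 9.75 in nTh1, 9.38 in TT naive and 8.45 on the naive-labelled array. Aldoc (a glycolytic aldolase), Ak4 (an adenylate kinase), Plod2 (a collagen lysine hydroxylase), Scd1 (a fatty acid desaturase) and Slamf7 (a SLAM family receptor) were also highest in cTh1, by 3.21 to 4.94 over the naive-labelled array. With 4 points per gene such likeness is weak, and it rests mainly on the cTh1 array. Ranking by Pearson correlation instead, among genes with a log2 range of at least 2, gave a list headed by Ebi3, with 0 of the 8 genes in common. The 8 genes nearest by distance still had correlations of 0.9755 to 0.9957 with Cdkn1a over the 4 arrays.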

How the data were processed

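RNA of 4 cell populations (300 ng each, per the labels' protocols) was measured on 1 array per population. The deposited log2 values were made by the authors; the submitters' processing notes name RMA and version 1.3.1 of Affymetrix Expression Console. RMA brings arrays to a common distribution, so a shift shared by most genes would not be seen. Genome build and summary level: not given in the sources used here.

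Probe sets with exactly 1 symbol in the platform annotation (23521 of 41345) were used, keeping for each gene its brightest probe set by mean log2 value. Each CDK inhibitor gene had 1 probe set. Comparisons took in genes that reached the median of all values, 6.61, on 1 or both arrays, and counted those 2-fold or further apart. With 1 array in each group no test could be made. The probe set SD pooled the spread of log2 differences over 455 to 480 genes with more than 1 probe set above the filter. The members, 13 pathway lists and 7 marker lists were chosen with earlier results of these data known. Named genes were the members, list members at 2-fold or more (the 6 largest where there were more), any member of the cyclin, CDK, retinoblastoma and E2F lists, the 8 genes nearest to Cdkn1a (predicted, Rik, LOC and small RNA genes left out) and the chromosome neighbours of members from a RefSeq table of GRCm38.p6. Other genes named for a low difference, a neighbour or a known role were chosen after their values were seen. Promoter sequences came from RefSeq (GRCm38.p6), with 250 bases before each start searched. Counting of calls was tested on simulated data. Python 3.11.15, numpy 2.4.6, pandas 2.3.3, statsmodels 0.14.6 and matplotlib 3.10.9 were used.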

Additional observations from a re-analysis of the deposited data

Results flagged for a closer look

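By the labels, a Th1 and a naive population can be set against each other in spleen (cTh1 minus the naive-labelled array, whose markers go against that label) and in thymus (nTh1 minus TT naive), with 1 array on each side. For 4 of the CDK inhibitor genes these differences had opposite signs. The share of all genes with opposite signs was not counted, so nothing is read from that number. Among the 4, both differences were beyond the probe set SD (0.402 in spleen and 0.257 in thymus) for Cdkn2d alone. Cdkn2d differed by 0.84 in spleen and -0.65 in thymus, a gap of 1.48. Cdkn2c differed by 0.34 and -0.78, a gap of 1.12. Cdkn1b differed by 0.82 and -0.11, a gap of 0.93. Cdkn1c differed by -0.48 and 0.22, a gap of -0.70. Taken against TT naive instead, the cTh1 differences were 0.68 for Cdkn2d, 1.28 for Cdkn2c, 0.53 for Cdkn1b and 0.07 for Cdkn1c. The last of these no longer has a sign opposite to the thymus value. The difference between tissues was not tested, and tissue, genotype, culture and the doubtful label cannot be told apart in it. Both contrasts also run across the difference in the Y-linked Eif2s3y, which was 8.61 and 8.55 on the naive sides and 4.97 and 5.16 in cTh1 and nTh1. The sex of the animals is not among the sample details used here. A difference in sex was not tested and cannot be told apart from the cell type within either contrast.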

How the results depend on the processing

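With arrays centred on their medians, or with a loess trend (span 0.3) removed, the 42 differences of the CDK inhibitor genes moved by at most 0.137, less than the probe set SD. Taking the mean of all probe sets could not move them, since each gene has 1. The sign turned in 3 cases, all near 0: Cdkn1c for cTh1 minus TT naive under both scalings and Cdkn2a for nTh1 minus TT naive under centring. At 3-fold, the members higher in cTh1 than TT naive numbered 1. Cdkn2d, 2.51-fold higher in cTh1 than in nTh1, was no longer counted in that comparison either. Members lower in TT naive than on the naive-labelled array numbered 0 at 3-fold, and also 0 with a filter at the 75th percentile. No paired analysis was possible because each group had 1 array, and no array could be left out.

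List counts changed mostly with the threshold. Counts that changed by a small ratio are not listed in what follows. For cTh1 against TT naive these included activators and brakes with 3 higher under centring. They also included p53 targets with 4 higher under the 75th percentile filter, and proliferation with 7 higher under loess. At 3-fold, for cTh1 minus the naive-labelled array, CDK activators and brakes had 1 higher, p53 regulators 0 lower, p53 targets 2 higher and 0 lower, and proliferation 0 higher. For cTh1 minus TT naive, late cyclins had 1 higher, CDKs 1, activators and brakes 2, E2F 0, p53 regulators 0, p53 targets 2 (and 0 lower) and proliferation 3. For cTh1 minus nTh1, activators and brakes had 3 higher, E2F 1, p53 regulators 0, p53 targets 3 (and 0 lower), TGF-beta 0 in each direction and imprinted neighbours 0 lower. Centring gave 1 proliferation gene lower than on the naive-labelled array; against TT naive, E2F 0 higher, and p53 regulators and TGF-beta 1 lower each; against nTh1, p53 regulators 0 higher and TGF-beta 2 lower. Loess gave, against the naive-labelled array, 1 Polycomb and 2 proliferation genes higher, 1 imprinted neighbour higher than in TT naive, and against nTh1 p53 regulators 0 higher and TGF-beta 2 lower. The 75th percentile filter left 1 p53 target lower than on the naive-labelled array. The likeness list shared 0 genes under Pearson correlation, which was ranked among genes with a log2 range of at least 2.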
